A study of Mus musculus with 27 samples.

Results

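Hnf4a, Rxra, Ppara, Esrra, Esrrg and Ppargc1a, 6 genes that encode regulators of proximal tubule identity and of mitochondrial and fatty acid metabolism, were taken by their symbols from the 19392 genes of the deposited table. All 6 were measured in every kidney. RNA-Seq had been done on the left kidneys of 27 wild-type C57BL/6 mice. The right kidney was removed from every mouse, the 0 min (sham) group included, and the left renal pedicle was clamped for 0, 16, 18, 20, 22, 24, 26, 28 or 30 min on a warm plate. Each group held 3 mice and kidneys were taken after 24 h of reperfusion. Values are in FPKM, which counts fragments relative to transcript length and to the mapped total, so levels of different genes can be compared per length. Age and sex are not given in the sources used here.

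HNF4A is the nuclear receptor that drives and holds the differentiated state of the proximal tubule. The proximal tubule lives mainly on fatty acid oxidation, and PPARA, which binds DNA as a pair with RXRA, switches on the genes for it. ESRRA and ESRRG are orphan receptors that, with the coactivator PGC-1-alpha encoded by Ppargc1a, keep up genes of the respiratory chain and the citric acid cycle.

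By RefSeq (GRCm38.p6, the build named in the submitters' processing notes), Hnf4a lies at chr2:163506811-163572907 and Rxra at chr2:27676445-27763319. Ppara lies at chr15:85734910-85806851, Esrra at chr19:6910977-6922048, Esrrg at chr1:187608510-188214885 and Ppargc1a at chr5:51454249-52115853. Esrra shares 52 bases with its neighbour Trmt112, and Hnf4a overlaps the antisense RNA Hnf4aos. Strand use in the counting is not given in the sources used here, so reads from such overlaps cannot be assigned with certainty. Gene FPKM also adds up all transcripts, whichever promoter they start from.

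The promoters of 3 members are shown, each for its own reason. Hnf4a has an upstream and a downstream start that its single FPKM value adds together. Ppargc1a was the only member to reach the DEG limit, and Rxra held the only member window with a nuclear receptor core motif. Each run is the 250 bases before an annotated start (RefSeq, GRCm38.p6), and capitals mark matches on either strand to the motifs given below them. The start used for Ppargc1a lies inside the gene span given above.

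Hnf4a, upstream start, chr2:163506607-163506856, plus strand: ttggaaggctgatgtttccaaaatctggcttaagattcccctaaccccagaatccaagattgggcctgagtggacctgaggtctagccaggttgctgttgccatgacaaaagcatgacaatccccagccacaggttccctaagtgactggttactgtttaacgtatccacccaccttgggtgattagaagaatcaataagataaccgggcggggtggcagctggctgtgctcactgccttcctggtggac
Hnf4a, downstream start, chr2:163546905-163547154, plus strand: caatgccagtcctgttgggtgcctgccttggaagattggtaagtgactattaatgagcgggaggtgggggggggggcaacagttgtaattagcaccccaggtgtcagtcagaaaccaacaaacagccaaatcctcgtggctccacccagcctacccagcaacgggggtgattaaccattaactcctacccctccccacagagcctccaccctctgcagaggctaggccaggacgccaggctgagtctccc
Rxra, second start, chr2:27709042-27709291, plus strand: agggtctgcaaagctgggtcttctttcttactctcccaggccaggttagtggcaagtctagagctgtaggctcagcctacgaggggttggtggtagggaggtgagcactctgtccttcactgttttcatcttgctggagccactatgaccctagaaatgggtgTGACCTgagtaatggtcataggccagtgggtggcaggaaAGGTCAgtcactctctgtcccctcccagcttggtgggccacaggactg
Ppargc1a, chr5:51567726-51567975, minus strand: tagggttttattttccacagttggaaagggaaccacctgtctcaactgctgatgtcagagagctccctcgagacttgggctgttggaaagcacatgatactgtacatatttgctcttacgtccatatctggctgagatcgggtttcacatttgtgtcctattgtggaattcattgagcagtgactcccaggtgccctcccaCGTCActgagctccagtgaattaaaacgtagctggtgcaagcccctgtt

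RefSeq windows of 300 bases (250 before to 50 after a start) were searched on both strands, 11 of them for the 6 members and 32851 in all. The nuclear receptor core motif AGGTCA was present in 16.3% of all windows and in 1 member window, the second start of Rxra. There it began 48 bases before the start on the same strand and 87 bases before it on the opposite strand. The ERR site TCAAGGTCA (0.423% of all windows, it contains the core motif), DR1, which is the core motif repeated after 1 base (0.0396%), the cyclic AMP element TGACGTCA (1.79%) and the ETS site CCGGAAGT (3.89%) were in none of the 11. Shorter motifs were added after the sequences were seen, and not all of them are reported. TGACG, a part of the cyclic AMP element (20.8% of all windows), matched the opposite strand 49 bases before the Ppargc1a start, and also the Ppara window. These matches are letters in a window and no measure of binding.

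In sham kidneys the members were expressed at very different levels. Hnf4a was the most abundant at 199 ± 15.5 FPKM (SD, n = 3), rank 424 of the 19392 genes. Esrra followed at 54.6 ± 3.67 and Rxra at 35.9 ± 2.32, and the ranges of these 3 did not overlap. Ppargc1a at 16.8 ± 2.58, Ppara at 16.0 ± 1.29 and Esrrg at 13.4 ± 1.46 stood below them, and each of these overlapped its neighbour. The order Hnf4a, Esrra, Rxra held at all 9 ischemia times with no overlap. Below them the mean of Ppargc1a was the fourth in sham kidneys and the last in each of the 8 clamped groups, with 11.4 ± 0.85 FPKM at 26 min, 7.50 ± 0.433 at 28 min and 8.06 ± 1.78 at 30 min. Its range was clear of that of its neighbour only in the 26 and 28 min groups. It overlapped its neighbour in sham kidneys, at each time from 16 to 24 min and at 30 min, so its place among the lower 3 is not settled there.

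**Figure D1:**
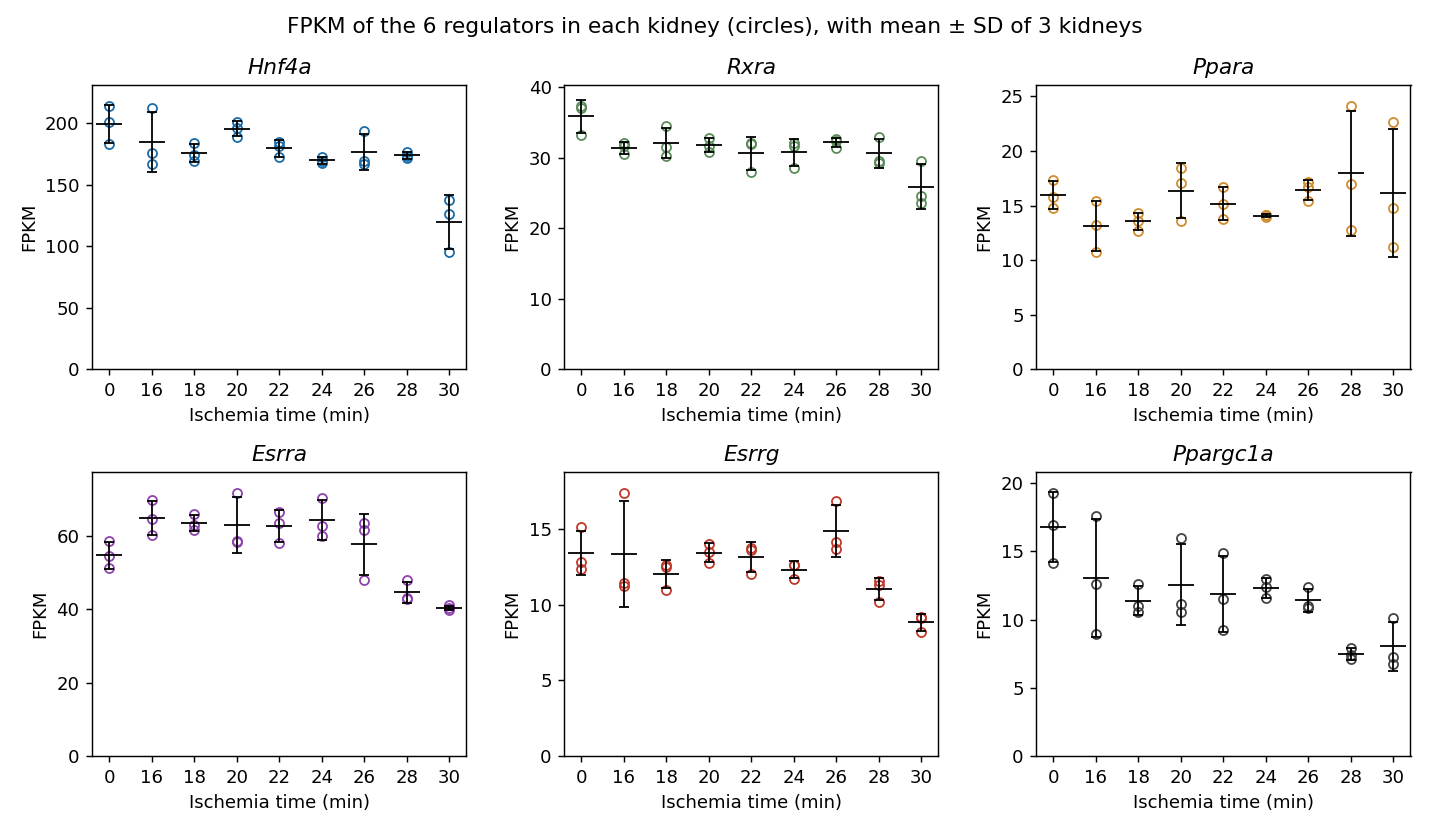
FPKM of each regulator (y axis, linear from 0) in every kidney by ischemia time in min (x axis, evenly spaced categories). Circles are single kidneys, and black bars give mean ± SD of 3 mice. Hnf4a at 30 min lies below its other 24 kidneys, Esrra and Ppargc1a are lower at 28 and 30 min, and the 3 kidneys of Ppara spread widely at 28 and 30 min.

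Each time was compared with 0 min, and with the time before it, by limma on log2(FPKM + 1) after quantile normalization. A gene passed with a Benjamini-Hochberg adjusted p under 0.05 over the 18188 genes tested, and a DEG also had an absolute log2 fold change above 1. On this scale the change of low genes is understated. All comparisons with 0 min share the same 3 sham kidneys, so they are not independent of each other. In whole kidney, fewer cells of a type and less RNA per cell cannot be told apart. The summed FPKM of 8 proximal tubule markers ran from 3941 to 4559 at 0 min, 2411 to 5255 at 16 to 26 min and 830 to 1568 at 28 and 30 min. All 8 were detected in each of these groups. Slc34a1 and Miox made up most of the sum, with means of 2226 and 1113 FPKM in sham kidneys. Of the 8, 5 passed as lower at 28 min and 7 at 30 min, where 23.6% and 25.4% of all genes did. Slc5a2 passed at neither time (0.06 and -0.33), and Slc5a12 and Slc22a6 did not pass at 28 min (-0.49 and -0.24). Their part in the results below was not tested.

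The number of members below sham was 1 or 2 from 16 to 26 min and higher at 28 and 30 min. At 16 min 1 of 6 passed as lower, where 9.61% of all genes did. In the ischemia 18 min group 2 of 6 passed (15.2% of all genes) and in the 20 min group 1 (12.1%). The 22 min group had 2 (15.4%), the 24 min group 1 (14.8%) and the 26 min group 2 (15.2%). It was 4 of 6 at 28 min (23.6%) and 5 of 6 at 30 min (25.4%), so the share of all genes was also higher there. No member passed as higher at any time. Up to 26 min only Rxra and Ppargc1a passed, at 28 min Esrra and Esrrg were added, and at 30 min Hnf4a. The early calls depended on the scaling. Against 0 min at 16 min, quantile normalized values gave 1715 genes higher and 1748 lower, values without it 2882 and 1009, and FPKM rescaled to a constant sum (TPM) 3159 and 903. The median of all genes moved by less than 0.1 (log2) between these scalings. Without quantile normalization, and on the TPM scale, no member passed at 16, 18, 20 or 26 min.

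**Figure D2:**
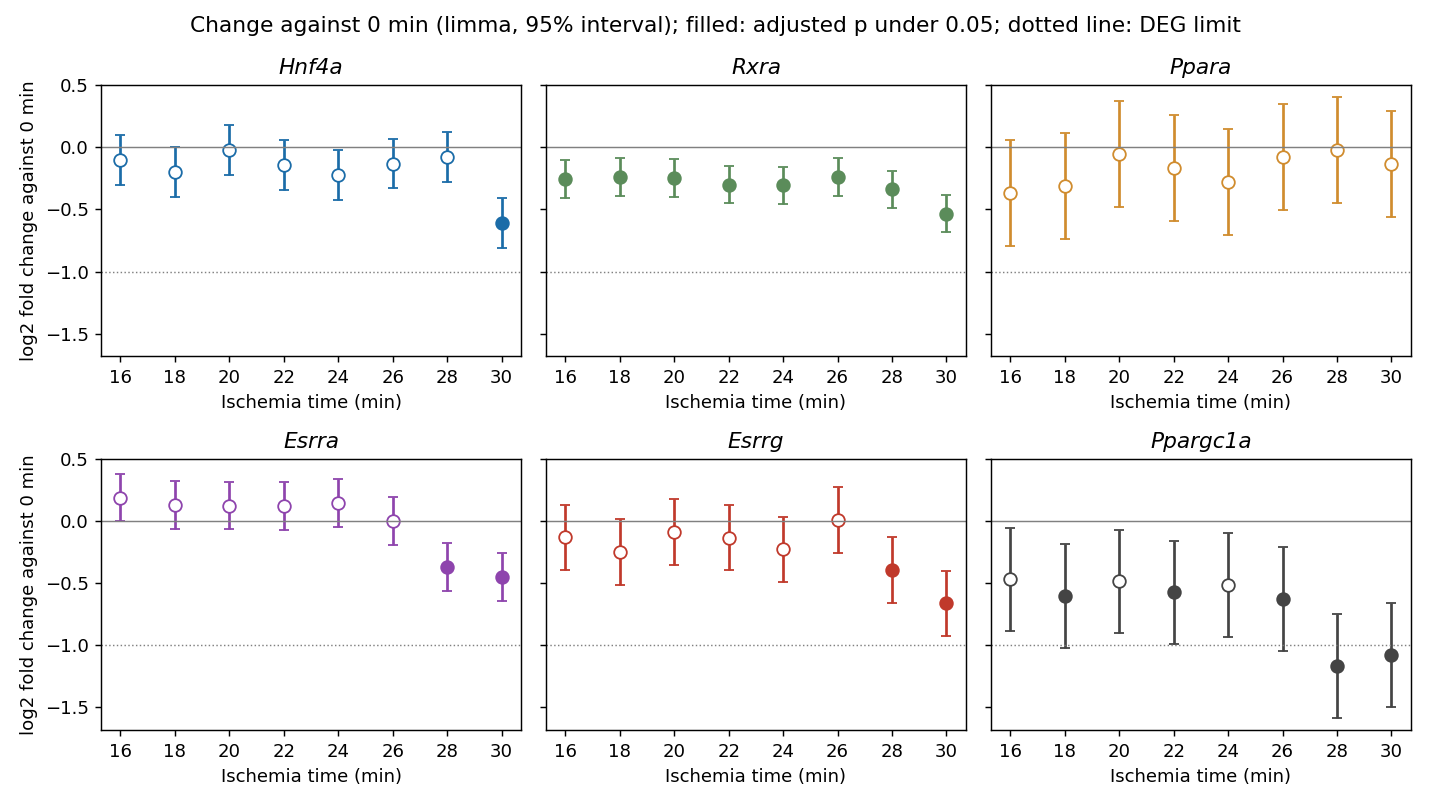
Log2 fold change of each regulator against 0 min (y axis) by ischemia time in min (x axis), from limma with 95% intervals. Filled circles passed an adjusted p under 0.05, and the dotted line marks the DEG limit. Hnf4a passed only at 30 min with -0.61, Rxra at every time, Ppara at none, and Ppargc1a reached -1.17 at 28 min.

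Hnf4a, the identity factor, passed as lower only at the longest clamp time. Its FPKM was 183, 200 and 214 in the 3 sham kidneys. The 18 kidneys from 16 to 26 min ran from 167 to 212 with a median of 175. The 28 min kidneys had 173, 171 and 177 FPKM, all below the lowest sham kidney, as were the 3 at 24 min (mean 170 FPKM, -0.22, adjusted p = 0.0888). Those at 30 min had 137, 126 and 95.6, all below the lowest of the other 24 kidneys. The change was -0.08 ± 0.096 (log2, SE) at 28 min (adjusted p = 0.537) and -0.61 ± 0.096 at 30 min (adjusted p = 1.90e-05). Between 28 and 30 min it fell by 0.53 (adjusted p = 0.00161). Hnf4a was the only member to pass in that step, 1 of 6 where 6.77% of all genes passed as lower. The 30 min mean of 120 ± 21.6 FPKM still ranked 682 of the 19392 genes. In a fit of only the 28 and 30 min groups neither Hnf4a nor any other gene passed for this step.

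Rxra, the common partner that PPARA and many other nuclear receptors need, was lower after every clamp time. The sham kidneys had 33.2, 37.4 and 37.1 FPKM, and the 18 kidneys from 16 to 26 min ran from 28.0 to 34.5 (median 31.7). The sham kidney at 33.2 FPKM lay inside that range and the other 2 above it. The 28 min values were 29.3, 29.6 and 33.0, and at 30 min 29.5, 24.6 and 23.6. The change against 0 min was between -0.24 and -0.34 from 16 to 28 min, with adjusted p from 6.00e-04 to 0.0189. It was -0.53 ± 0.072 at 30 min (adjusted p = 3.30e-06). On the TPM scale the value at 16 min was -0.18 and at 26 min -0.12, and neither passed. Rxra passed under both other scalings at 22, 24, 28 and 30 min.

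Ppara, the fatty acid sensor, did not pass in any comparison. The sham kidneys had 17.4, 15.8 and 14.8 FPKM, and the kidneys from 16 to 26 min ran from 10.8 to 18.5 (median 14.3). At 28 min the values were 24.1, 12.8 and 16.9, and at 30 min 11.2, 22.6 and 14.7. The highest and the second lowest of all 27 kidneys were in the 28 and 30 min groups, where the SD was 32.0% and 36.2% of the mean against 8.05% in sham kidneys. The change was -0.02 at 28 min with a 95% interval from -0.45 to 0.40, and -0.14 at 30 min with an interval from -0.56 to 0.29. Changes within these intervals were not detectable with 3 mice a group.

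The kidneys that differed most in Ppara could be set against the genes it is known to switch on. This look was chosen after the values were seen and carries no test. At 30 min the kidney with 22.6 FPKM of Ppara held the highest value of its group for 28 of 36 lipid oxidation genes, and for 23.3% of all genes tested. One of them, Cyp4a14, a fatty acid omega-hydroxylase, had 71.9, 234 and 45.5 FPKM in the 3 kidneys, in the order given for Ppara. At 28 min the kidney with 24.1 FPKM of Ppara was the highest for 13 of the 36 genes, and for 32.6% of all genes. There the kidney with 16.9 FPKM, the middle value of Ppara, was the highest for more of them, 17 of 36, and for 29.4% of all genes, so the targets did not follow the order of Ppara at 28 min. The same 30 min kidney had the most S100a8, a neutrophil gene, at 12.1 FPKM against 5.19 and 6.50, and the least Slc7a13, a late proximal tubule transporter, at 1.99 FPKM against 3.98 and 4.30.

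Esrra, the estrogen-related receptor found in most oxidative tissues, was lower only after the longer clamps. The sham kidneys had 58.4, 51.1 and 54.4 FPKM. The 18 kidneys from 16 to 26 min ran from 48.0 to 71.6 with a median of 62.7, and 1 kidney at 26 min (48.0) lay apart from its group at 61.4 and 63.3. At 28 min the kidneys had 43.1, 42.7 and 47.9, and at 30 min 41.0, 39.8 and 40.2, all below the lowest of the other 21. From 16 to 24 min the difference from sham was positive, 0.12 to 0.19, and did not pass. It was -0.37 ± 0.091 at 28 min (adjusted p = 0.00214) and -0.45 ± 0.091 at 30 min (adjusted p = 3.08e-04). Trmt112, whose end overlaps that of Esrra, had 44.4 to 46.6 FPKM at 26 min and 61.8 to 67.4 at 28 min.

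Esrrg, the related receptor that is abundant in kidney and heart, had 15.1, 12.8 and 12.4 FPKM in sham kidneys, far below Esrra. The 18 kidneys from 16 to 26 min ran from 11 to 17.4 (median 12.7). In the 28 min group Esrrg was at 11.6, 11.3 and 10.2 FPKM. At 30 min it was at 9.11, 9.20 and 8.18, the lowest 3 of the 27. The change was -0.39 ± 0.13 at 28 min (adjusted p = 0.0137) and -0.66 ± 0.13 at 30 min (adjusted p = 1.68e-04). The 28 min call was lost without quantile normalization (-0.26) and on the TPM scale (-0.28).

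Ppargc1a, the coactivator, showed the largest changes of the 6 in log2 at every clamped time. The sham kidneys had 19.3, 16.9 and 14.1 FPKM. The 18 kidneys from 16 to 26 min ran from 8.93 to 17.6 (median 11.5), and 3 of them, at 16, 20 and 22 min, were within the sham range. At 28 min the kidneys had 7.10, 7.96 and 7.44 FPKM and at 30 min 7.30, 6.78 and 10.1. The change passed at 18 min (-0.60, adjusted p = 0.0287), 22 min (-0.57, 0.0360) and 26 min (-0.63, 0.0215). At 16, 20 and 24 min it was -0.47, -0.49 and -0.51 and did not pass. Ppargc1a was a DEG at 28 min (-1.17 ± 0.20, adjusted p = 6.64e-05) and at 30 min (-1.08 ± 0.20, adjusted p = 1.22e-04). At 30 min it missed the DEG limit without 0 min replicate 1 (-0.97), without 30 min replicate 2 (-0.99) and without quantile normalization (-0.98), though it passed the adjusted p in each. None of the other 5 members was a DEG at any time. The calls at 18, 22 and 26 min were lost without quantile normalization and on the TPM scale, and those at 28 and 30 min were kept.

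At 16 min 1 kidney, replicate 3, stood apart from the other 2 for several members. It had 17.6 FPKM of Ppargc1a against 12.6 and 8.93 in the other 2 kidneys, 17.4 of Esrrg against 11.3 and 11.5, and 212 of Hnf4a against 175 and 167. Its Ppargc1a and Hnf4a lay within the sham range, and its Esrrg was the highest of all 27 kidneys. Without it, Rxra, Esrrg and Ppargc1a all passed as lower at 16 min, 3 of 6 in place of 1, where 14.8% of all genes passed as lower in that fit.

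Neighbouring times were compared to see where along the series the members moved. No member passed in the 5 steps between 16 and 26 min, where 0% of all genes passed as lower in each. At an unadjusted p under 0.05 the count of members was also 0 in each. The genes under that limit numbered 977, 514, 447, 469 and 1100 of the 18188 tested, in order of time. With so few members, a count of 0 does not set them apart from all genes. A linear trend over the 18 kidneys from 16 to 26 min passed for no member, while 0.011% of all genes passed as higher. At an unadjusted p under 0.05 the trend counted 0 of 6 members and 1602 of the 18188 genes tested. This count of 0 does not set the members apart from all genes. From 26 to 28 min 2 of 6 members passed as lower, where 8.52% of all genes did. These were Esrra (-0.37 ± 0.091, adjusted p = 0.00742) and Esrrg (-0.40 ± 0.13, adjusted p = 0.0309). Ppargc1a changed by -0.54 ± 0.20 and did not pass (adjusted p = 0.0639), although its ranges at 26 and 28 min did not overlap. It passed on the TPM scale, with a stricter filter (3 kidneys at 1 FPKM or more), and in a fit of only these groups. Hnf4a, Rxra and Ppara differed by 0.05, -0.10 and 0.05 with none passing. Without 26 min replicate 2, neither Esrra nor Esrrg passed, and Esrrg also did not pass without 26 min replicate 1 or 28 min replicate 2 or 3. Esrra did not pass in the fit of only these groups.

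Since the groups from 16 to 26 min differed so little, they were also pooled, a choice made after seeing the data. From 0 min to 16 to 26 min, 2 of 6 passed as lower (20.6% of all genes): Rxra with -0.26 ± 0.055 (adjusted p = 8.03e-04) and Ppargc1a with -0.55 ± 0.15 (adjusted p = 0.00755). Without 0 min replicate 1, Rxra alone passed. From there to 28 and 30 min, 5 of 6 passed as lower (22.5% of all genes). The changes were -0.58 ± 0.12 for Ppargc1a, -0.53 ± 0.053 for Esrra, -0.39 ± 0.073 for Esrrg, -0.21 ± 0.055 for Hnf4a and -0.17 ± 0.042 for Rxra. Ppara differed by 0.13 with a 95% interval from -0.12 to 0.38.

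Whether members responded by different amounts was tested within kidneys. The log2 difference between 2 members in each kidney was compared between groups by an exact permutation test, two-sided, for the 15 pairs in both steps, and adjusted over the 30 tests. The smallest p the first step allows is 0.000752. From 0 min to 16 to 26 min, 5 of 15 pairs differed. The change of Ppargc1a was below that of Esrra by 0.66 (adjusted p = 0.00644, exact permutation test), below that of Esrrg by 0.41 (adjusted p = 0.00451) and below that of Hnf4a by 0.41 (adjusted p = 0.0402). Esrra moved up relative to Rxra by 0.38 (adjusted p = 0.00644) and to Hnf4a by 0.25 (adjusted p = 0.0421). Ppargc1a against Rxra differed by -0.28 and did not pass.

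From 16 to 26 min to 28 and 30 min, 10 of 15 pairs differed. The permutation treats the kidneys of both groups as exchangeable, but their spread was often unequal. The SD of Hnf4a minus Ppara was 0.17 at 16 to 26 min (n = 18) and 0.52 at 28 and 30 min (n = 6). For Hnf4a minus Ppargc1a it was 0.23 and 0.46, and for Rxra minus Esrra 0.15 and 0.12. Where the smaller group spreads more, in these or the other pair tests, p can be too small. Ppara stood above Ppargc1a by 0.71, above Esrra by 0.66, above Esrrg by 0.52 and above Hnf4a by 0.34 (adjusted p = 0.00384, 0.00312, 0.00384 and 0.0402, exact permutation test). Esrra, Esrrg and Ppargc1a each fell more than Rxra, by 0.36, 0.22 and 0.40, and more than Hnf4a, by 0.32, 0.18 and 0.37. The pooled step joins unlike times for Hnf4a. In tests of each time alone, added after seeing the data, the change from 16 to 26 min was 0.06 for Hnf4a at 28 min and -0.48 at 30 min. At 28 min Esrra, Esrrg and Ppargc1a lay below Hnf4a by 0.55, 0.31 and 0.68 (adjusted p = 0.00564 for each, exact permutation test). At 30 min the gaps were 0.09, 0.05 and 0.06 and none passed. Hnf4a minus Ppara was -0.13 at 28 min and did not pass, and -0.55 at 30 min (adjusted p = 0.0258, exact permutation test). The Rxra pairs also differed by time. Rxra minus Esrra passed at 28 min and at 30 min (0.41 and 0.30). Rxra minus Ppargc1a passed at 28 min (0.55) and not at 30 min (0.26), and Rxra minus Esrrg at neither (0.18 and 0.26). In the pooled step, no pair among Esrra, Esrrg and Ppargc1a passed. The differences were -0.14 for Esrra minus Esrrg, 0.05 for Esrra minus Ppargc1a and 0.19 for Esrrg minus Ppargc1a, with SDs over kidneys of 0.17 to 0.30 at 28 and 30 min. Hnf4a and Rxra differed by -0.04 (SD 0.21 at 28 and 30 min, n = 6). At 28 min alone Ppargc1a fell more than Esrrg by 0.36 (adjusted p = 0.0113, exact permutation test), and at 30 min alone Hnf4a fell more than Rxra (-0.21, adjusted p = 0.0169).

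**Figure D3:**
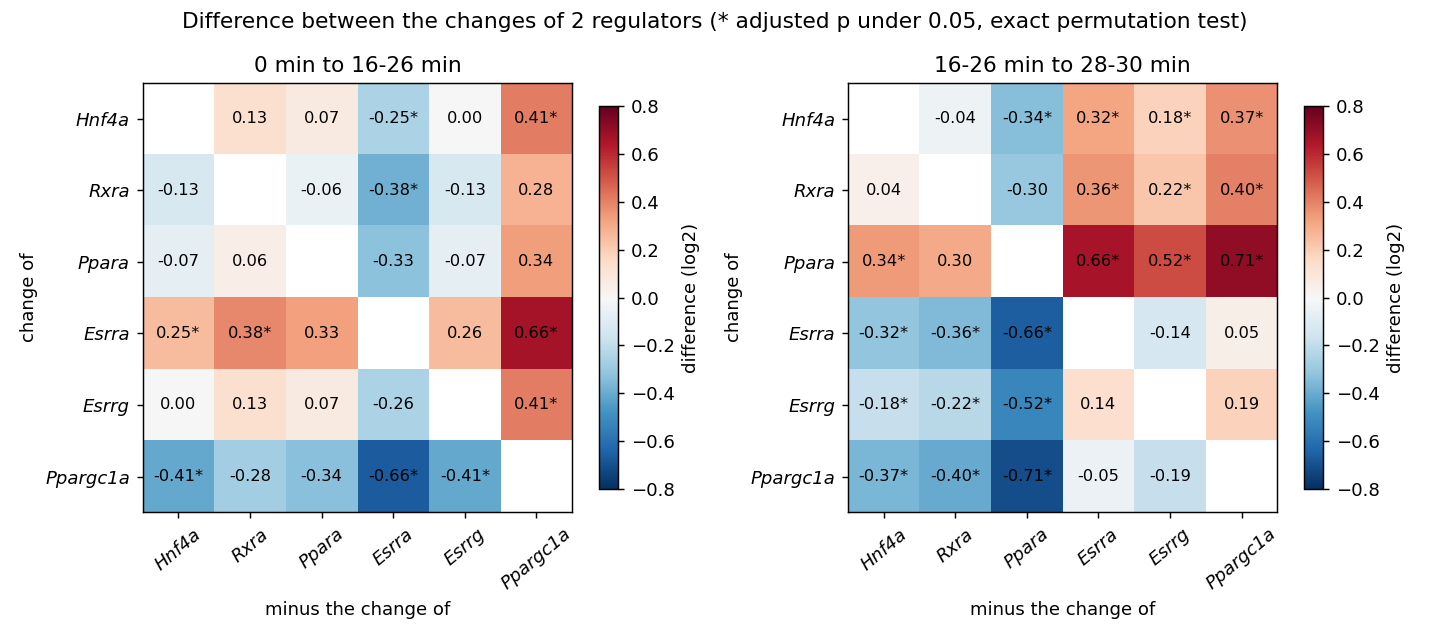
Difference between the log2 changes of 2 regulators (row minus column) from 0 min to 16 to 26 min (left) and from there to 28 and 30 min (right). Red means that the row gene fell less or rose more, and asterisks mark an adjusted p under 0.05 (exact permutation test). On the left Ppargc1a and Esrra differ by 0.66, and on the right Ppara stands above the other 5, 4 of them with an asterisk. The right panel pools 28 and 30 min, and not every asterisk there held at each time alone.

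Across the 18 kidneys from 16 to 26 min, 1 of 15 pairs of members varied together beyond the threshold. Hnf4a and Esrrg had Pearson r = 0.67 (adjusted p = 0.0334, permutation test) and Spearman rho = 0.43 (adjusted p = 0.238). Without the 2 kidneys farthest from the Hnf4a median, r was 0.52. Without 16 min replicate 3 it was 0.52 with an adjusted p of 0.166, adjusted again over the pairs as a step added after seeing the data, so the call rests on that kidney. The call was also lost without 16 min replicate 2, 18 min replicate 1, 20 min replicate 3 or 26 min replicate 2. By rank, 2 other pairs passed: Esrra with Ppargc1a (rho = 0.69, adjusted p = 0.0289; r = 0.51, adjusted p = 0.126) and Ppara with Esrrg (rho = 0.64, adjusted p = 0.0339; r = 0.58, adjusted p = 0.0589). Without the 2 farthest kidneys these r were 0.46 and 0.65.

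The genes whose normalized values followed each member most closely over all 27 kidneys were sought among the 8953 other genes with a mean of at least 5 FPKM. The kidneys share the same groups, so these r describe the series and carry no test. For Hnf4a they were Erlin1 (r = 0.91), Synrg (0.90) and Cldn2 (0.88), a claudin of the proximal tubule. For Esrra they were Nat8f6 (0.95), Tecr (0.94), which acts in fatty acid elongation, and Cox8a (0.94), a subunit of cytochrome oxidase. Esrrg went with Dbt (0.94), of branched-chain amino acid breakdown, Myo6 (0.93), a myosin, and Fam210a (0.91). Ppargc1a went with BC034090 (0.97), AW549877 (0.96) and Cyfip2 (0.96). For Rxra the highest were Sigirr (0.90), 4930402H24Rik (0.89) and 1600014C10Rik (0.89). Ppara had the weakest neighbours, Retreg1 (0.66), Gldc (0.66), of glycine breakdown, and Hsd17b4 (0.64), a peroxisomal enzyme of fatty acid oxidation.

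The relatives and partners of the members were examined as a list of 20 nuclear receptors. At 16 min 0 were higher (9.43% of all genes were) and 2 lower (9.61%), from 26 to 28 min 0 higher (10.8%) and 2 lower (8.52%), and at 30 min against sham 1 higher (26.9%) and 7 lower (25.4%), with a median of -0.19. The lower counts at 16 min and from 26 to 28 min were near the shares of all genes. The same shares stand behind the counts of the lists that follow. All list counts are on quantile normalized values and are not given for the other scalings. At 16 min the counts of all genes depended on the scaling, as described above. Thra, a thyroid hormone receptor and RXR partner, was already lower at 16 min, at 18.0 to 18.5 FPKM against 30.0 to 37.9 in sham kidneys (-0.92, adjusted p = 2.50e-04), a larger change than that of any member. Vdr, the vitamin D receptor, was 35.9 to 49.98 FPKM at 28 min against 65.6 to 85.4 at 26 min (-0.71, adjusted p = 0.0129). Esrrb, the third estrogen-related receptor, was 3.26 to 11.04 FPKM at 30 min against 13.1 to 17.1 in sham (-1.38, adjusted p = 0.00363). Rarg, a retinoic acid receptor, was the gene of this list that rose at 30 min (0.52, adjusted p = 0.0133). Rxrb, the sister of Rxra, had 17.4 ± 1.43 FPKM at 30 min and 16.7 ± 1.002 in sham kidneys and did not pass.

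Of 16 coactivators and corepressors, 1 was higher and 1 lower at 16 min, 1 and 1 from 26 to 28 min, and 2 and 8 at 30 min against sham. The counts at 16 min and from 26 to 28 min lay below the shares of all genes (9.43% higher and 9.61% lower, 10.8% and 8.52%), as did the 2 higher at 30 min (26.9%), while 25.4% of all genes were lower at 30 min. Pprc1, a relative of Ppargc1a linked to growth signals, rose while Ppargc1a fell. It had 2.52 to 4.68 FPKM in sham kidneys and 9.21 to 10.6 at 30 min (1.20, adjusted p = 5.82e-06), and it also rose from 26 to 28 min (0.62, adjusted p = 0.0141). Lpin1, which works with PGC-1-alpha and PPARA, was 3.39 to 6.26 FPKM at 30 min against 13.1 to 14.2 (-1.42, adjusted p = 3.27e-06). Perm1, named for its induction by PGC-1 and the ERRs in muscle, fell by 1.01 (adjusted p = 0.00280), and the steroid receptor coactivator Ncoa2 by 0.50 (adjusted p = 1.09e-04). Sirt1, a deacetylase of PGC-1-alpha, was already lower at 16 min (-0.31, adjusted p = 0.0277).

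Of 16 other tubule transcription factors, 1 was higher and 3 lower at 16 min, 0 and 4 from 26 to 28 min, and 3 and 8 at 30 min. Of all genes, 9.43% were higher and 9.61% lower at 16 min, 10.8% and 8.52% from 26 to 28 min, and 26.9% and 25.4% at 30 min. Maf (-0.85, adjusted p = 0.00118) and Klf15 (-0.73, adjusted p = 0.00348), a regulator of amino acid and fatty acid use, were lower at 16 min, when the members other than Rxra did not pass. At 30 min Lhx1, Klf15 and Emx1 were lower by 1.40, 1.39 and 1.29 (adjusted p = 4.00e-07, 4.30e-07 and 4.36e-09), and each had ranges clear of sham. Tfcp2l1 and Gata3, factors of the distal nephron and collecting duct, rose at 30 min by 0.39 (adjusted p = 8.43e-04) and 0.35 (adjusted p = 0.0330).

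Among 36 lipid oxidation genes known as targets of PPARA, both directions were seen, although Ppara itself did not pass. At 16 min 0 were higher and 11 lower, from 26 to 28 min 4 higher and 6 lower, and at 30 min 8 higher and 15 lower (median -0.29). Ehhadh and Acadm, enzymes of peroxisomal and mitochondrial fatty acid oxidation, were lower at 16 min by 1.23 and 0.98 (adjusted p = 0.00289 and 3.67e-04). Acadm went from 541 to 563 FPKM in sham kidneys to 228 to 391 at 16 min and 95.6 to 117 at 30 min (-2.45, adjusted p = 2.34e-10). Plin2, a lipid droplet coat protein, went the other way, from 42.7 to 57.5 FPKM in sham to 264 to 653 at 30 min (2.91, adjusted p = 4.59e-09). Angptl4 and Pdk4, which restrain lipoprotein lipase and pyruvate dehydrogenase, rose with it by 1.57 and 1.77 (adjusted p = 2.87e-04 and 1.96e-04).

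Of 30 mitochondrial genes linked to PGC-1-alpha and the ERRs, 4 were higher and 2 lower at 16 min. From 26 to 28 min 0 were higher and 16 lower (median -0.20), and at 30 min against sham 4 were higher and 20 lower (median -0.38). Esrra and Esrrg also passed as lower from 26 to 28 min, though not without 26 min replicate 2, and a link was not tested. Cox7a1, a cytochrome oxidase subunit, had 16.4 to 27.7 FPKM at 26 min and 9.71 to 11.1 at 28 min (-1.13, adjusted p = 0.00120). Sirt3, the mitochondrial deacetylase, fell by 0.74 in that step (adjusted p = 0.00106), and it was already lower at 16 min (-0.57, adjusted p = 0.00742, limma). The largest falls at 30 min against sham were Cox7a1, Sirt3 and Idh2 with -1.89, -1.60 and -1.25 (adjusted p = 3.92e-07, 1.11e-08 and 6.58e-07, limma). Ucp2, an inner membrane carrier, rose at 16 min by 1.10 (adjusted p = 0.00163) and by 1.70 at 30 min (adjusted p = 1.70e-06), and Cs, citrate synthase, by 0.27 and 0.42 (adjusted p = 0.00665 and 1.38e-05).

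The 36 differentiated proximal tubule genes, transporters and enzymes of the mature segment, had larger medians than the 6 members, whose median at 30 min was -0.57. At 16 min 1 was higher and 12 lower, from 26 to 28 min 0 higher and 28 lower with a median of -0.91, and at 30 min 0 higher and 33 lower with a median of -2.04. From 26 to 28 min the Hnf4a level differed by 0.05 and did not pass. Slc7a13, an amino acid transporter of the late proximal tubule, had 42.2 to 60.2 FPKM at 26 min and 5.85 to 8.73 at 28 min (-2.66, adjusted p = 1.16e-04). At 30 min it had 1.99 to 4.30 FPKM against 161 to 316 in sham kidneys. Slc22a7, an organic anion transporter, fell by 1.74 from 26 to 28 min (adjusted p = 0.00108), and G6pc, the last enzyme of glucose release, by 1.77 (adjusted p = 0.0110). Hao2, a peroxisomal oxidase, was lower by 3.71 at 30 min (adjusted p = 1.33e-10). Over all genes tested, the median change was 0.00 in both steps.

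**Figure D4:**
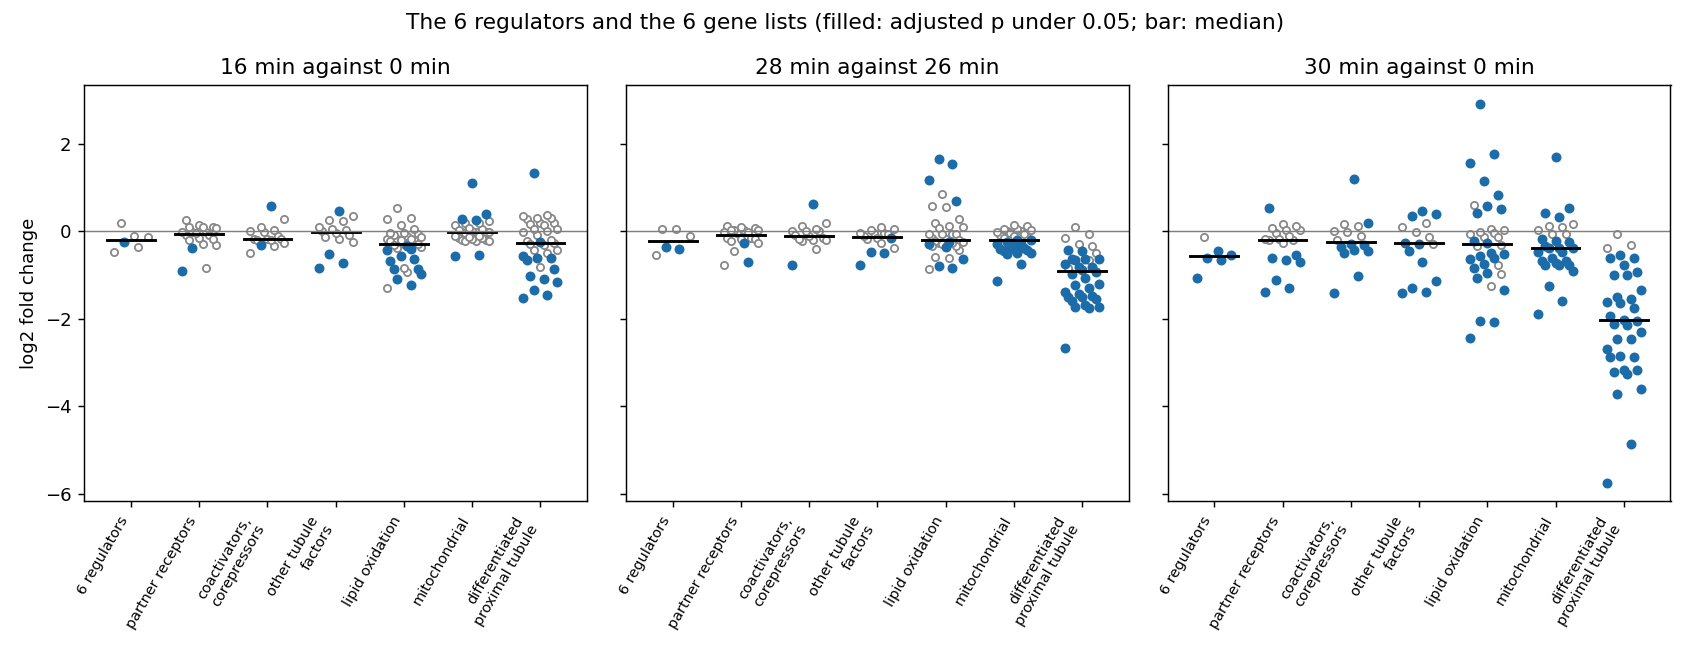
Log2 fold change (y axis) of the 6 regulators and of the genes of 6 lists (x axis) for 16 against 0 min, 28 against 26 min and 30 against 0 min. Each circle is a gene, filled where it passed an adjusted p under 0.05, and bars are medians. At 30 min the differentiated proximal tubule genes have a median of -2.04, and the regulators range from -1.08 to -0.14.

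Other cell types were checked by their markers. Against sham, 4460 of the 18188 genes tested were higher at 28 min and 23.6% were lower. At 30 min 26.9% were higher and 25.4% lower. Counts such as 1 of 3 or 1 of 4 markers are near these shares. The summed FPKM of 6 injured tubule markers, among them Havcr1 (KIM1) and Lcn2, ran from 990 to 2015 at 0 min, 1524 to 16032 at 16 to 26 min and 18683 to 27661 at 28 and 30 min. Of these 6, 5 were higher at 30 min. Neutrophil markers summed to 5.04 to 9.75 FPKM at 0 min, 3.79 to 11.6 at 16 to 26 min and 14.5 to 27.2 at 28 and 30 min. All 4 were higher at 28 and 30 min than at 16 to 26 min, as were 5386 of the 18188 genes tested. Against sham, S100a9 and Csf3r passed as higher at 28 and 30 min, S100a8 only at 30 min and Cxcr2 at neither. Distal convoluted tubule markers summed to 344 to 428 FPKM in sham and 124 to 225 at 28 and 30 min, and all 3 of them were lower than sham at 28 min and at 30 min. Of 3 loop of Henle markers 2 were lower at 30 min, Slc12a1 by 2.43, and the sum went from 1566 to 1737 FPKM in sham to 504 to 2190 at 28 and 30 min. Of 6 collecting duct markers 5 were lower at 28 min and 3 at 30 min. Erythroid markers summed to 101 to 442 FPKM in sham and 245 to 1034 at 28 and 30 min, and all 3 were higher at 30 min, Hbb-bs by 2.04. Of 3 endothelial markers 2 were higher at 30 min, Pecam1 by 0.87, and of 3 podocyte markers 1, Podxl, by 0.85. Stroma markers summed to 31.1 to 33.9 FPKM in sham, 50.3 to 106 at 16 to 26 min and 26.0 to 71.2 at 28 and 30 min, and at 30 min 2 of 4 were higher and 1 lower. Of 4 macrophage markers 1 was higher and 1 lower at 30 min, and of 4 lymphocyte markers 0 and 2. Adipocyte markers summed to 0.19 to 0.52 FPKM in sham, 0.37 to 53.5 at 16 to 26 min (median 0.86) and 0.31 to 4.10 at 28 and 30 min. The highest kidney at 16 to 26 min thus stood far above the median of its group, though none of these 4 markers passed in either pooled step. The part of these markers in the members' results was not tested. The summed FPKM per kidney lay between 512453 and 554036. No read counts are given, and the depth is unknown. From the steps between the values of 17 low genes, depth relative to the middle kidney was put at 0.947 to 1.07.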

How the data were processed

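The authors deposited linear FPKM values per gene symbol and kidney, with 2 decimals, where the paper names the unit RPKM. The submitters' processing notes list Bowtie2, RSEM, DESeq2 and the build GRCm38.p6, and versions are not given in the sources used here. A pseudocount of 1 FPKM was added before the log2 step, and the result was quantile normalized between the 27 kidneys. Genes with a value above 0 in at least 3 kidneys, 18188 in all, entered a limma 3.58.1 fit (R 4.3.3) that had a mean for each group, and p-values were adjusted over all of them by Benjamini-Hochberg. Exact permutation tests and permutations with 100000 resamples were run in Python 3.11.15. The pair tests of the 2 steps and the correlation tests were also run on simulated data.

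The members and lists were chosen with earlier results of these data known. From each list, the genes named were up to 3 of the largest rises and falls among those that passed with FPKM ranges that did not overlap, for 16 against 0, 28 against 26 and 30 against 0 min. Relatives of members, genes that overlap them and genes picked after their values were seen are named beside these. Replicates were different mice. Their numbers did not pair the kidneys and no block was used. The depth is unknown, so precision rests on the 3 mice of each group. Alternatives were other pseudocounts, scalings, filters and fits, a replicate block and leaving out each kidney. Protein sequences were not used here, and some items are not reported here.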

Additional observations from a re-analysis of the deposited data

How the results depend on the processing

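With 3 mice a group, small changes lie near the threshold. Members were called in 28 single or pooled comparisons. Of their 231 values under other settings, 210 kept direction and call, 21 kept the direction without passing and 0 reversed. Of 288 values with 1 kidney left out, 34 did not pass and 0 reversed. The calls at 28 and 30 min against 0 min numbered 3 to 4 and 5 under all settings.

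Without quantile normalization and on the TPM scale alike, 0 members passed at 16, 18, 20 and 26 min against 0 min, and 1 at 22 min. Without quantile normalization 2 passed from 28 to 30 min. With at least 1 FPKM in at least 3 kidneys, 2 passed at 24 min. In fits of only the groups compared, 0 passed at 16 min, 1 at 22 min, 3 at 24 min and 0 from 28 to 30 min, where 0 of all genes passed against 1177 higher and 1231 lower, and at 16 min 6 higher and 10 lower against 1715 and 1748. For the correlations, 0 pairs passed without quantile normalization, 3 on the TPM scale and 2 by Spearman.

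With 1 kidney left out, the members passing against 0 min numbered 0 to 3 at 16 min (3 without 16 min replicate 3, 0 without 0 min replicate 2 or 3 or 16 min replicate 1 or 2), 0 to 1 at 18 min (0 without replicate 2 of 0 or 18 min, 1 without any other), and 0 to 2 at 20 min (0 without 0 min replicate 2 or 3 or 20 min replicate 1, 2 without 20 min replicate 3). They numbered 1 to 2 at 22 min (1 without 0 min replicate 1 or 2 or 22 min replicate 1 or 3), 1 to 2 at 24 min (2 without 0 min replicate 3) and 0 to 2 at 26 min (0 without 0 min replicate 2 or 26 min replicate 3, 1 without 0 min replicate 1 or 3 or 26 min replicate 1). From 26 to 28 min they numbered 0 to 2 (0 without 26 min replicate 2, 1 without 26 min replicate 1 or 28 min replicate 2 or 3), and from 28 to 30 min 1 to 2 (2 without 30 min replicate 1). For 16 to 26 min pooled they numbered 1 to 3 (1 without 0 min replicate 1). Pairs that differed in the first step numbered 3 to 6 (3 without 0 min replicate 2, 22 min replicate 1 or 26 min replicate 1) and in the second 7 to 11. With each time tested alone against 16 to 26 min, 9 pairs passed at 28 min and 6 at 30 min. Correlated pairs numbered 0 to 2 (0 without 16 min replicate 2 or 3, 18 min replicate 1, 20 min replicate 3 or 26 min replicate 2, 2 without 16 min replicate 1, 20 min replicate 1 or 24 min replicate 2).

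Same-numbered kidneys did not deviate together (median r = -0.0087 over 108 pairs, 25 above 0.1), and 10 of 27 kidneys correlated best with their own number. A fit with the replicate block changed no count of members: 5 passed at 30 min and 4 at 28 min against 0 min.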
